A study of Mus musculus with 19 samples.

Results

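Gene expression was compared between 7 aortae infused with elastase and 5 infused with saline, all from male mice, which made up 12 of the 19 arrays of the series. The members were taken from the sample titles, as the arrays of males labelled PPE 7d and sham 7d. Both groups were C57BL/6J mice, an inbred laboratory strain, operated at 10 weeks of age. The infrarenal aorta was closed off and filled for 5 min at 120 mmHg with saline alone (sham) or with saline containing type I porcine pancreatic elastase at 2.5 U/mL (PPE), and the stretch between the left renal artery and the aortic bifurcation was dissected after 7 days. No transgene, deletion or drug was named for either group, and each array held the RNA of 1 mouse. The 7 arrays of females (3 sham and 4 PPE) entered the estimate of the variance and the test of a sex difference. They also entered the choice among several probe sets of a gene and the alternative scalings of the arrays. The table was reduced to 30062 genes, and a gene was called where limma's test gave a Benjamini-Hochberg adjusted p below 0.05 over all of them. All levels are log2 intensities as deposited, differences are PPE minus sham in log2 units with their standard error (SE), and n is 5 sham and 7 PPE arrays throughout. The number of arrays limits the precision of every value.

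Elastase digests the elastic lamellae of the aortic wall, and mice so treated are widely used as a model of aneurysm of the abdominal aorta. A healthy aorta consists mostly of contractile smooth muscle between these lamellae, with an endothelial lining inside and an adventitia of fibroblasts, resident macrophages and nerves outside. In the days after the infusion, leukocytes enter the wall and the contractile programme of smooth muscle, which rests on serum response factor and its co-factor myocardin, is known to be lost.

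The labelled tissue was checked against marker lists, each summarised as the mean log2 level of its genes. Smooth muscle markers were bright in sham arrays (12.19 to 13.24 over 9 genes) and lower in PPE arrays (10.69 to 11.64), with 8 of 9 called lower (of all genes 9.97% were called lower and 9.69% higher). Macrophage markers rose from 11.37 to 13.11 in sham to 13.50 to 14.43 in PPE arrays (7 of 8 called higher), T and NK cell markers from 6.42 to 6.57 to 7.92 to 8.83 (8 of 8), and neutrophil markers from 6.51 to 7.74 to 8.15 to 9.33 (7 of 8). Adventitial fibroblast markers lay at 13.57 to 14.46 and 13.30 to 13.76 (6 of 7 called lower), and no marker of B or plasma cells or of red blood cells was called among 8 and 4 measured. Some arrays stood apart. White fat markers stood at 12.75 in sham 4 (8.79 to 9.99 in the rest of the sham group) and brown fat markers at 9.86. In PPE 6 skeletal muscle markers stood at 7.32 (5.33 to 5.64 in the rest of the PPE group), and PPE 1 had the highest median over all probe sets (5.85, with 5.61 to 5.69 in the other PPE arrays). Circadian clock genes averaged 8.94 and 8.96 in sham 4 and sham 5, 8.32 to 8.57 in sham 1 to 3 and 7.90 to 8.16 after PPE. The genome-wide counts and those of most lists are therefore also given without sham 4, sham 5 and PPE 1, which leaves 3 sham and 6 PPE arrays.

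After elastase about as many genes had risen as had fallen. Of the 30062 genes 5910 were called (19.7%), 2913 higher (9.69%) and 2997 lower (9.97%), and the median difference over all genes was 0.006. The split depended on the scaling: with each array centred on its median, which shifted all differences by 0.05, 3385 genes were called higher and 2221 lower (60.4% higher instead of 49.3%), whereas quantile normalization gave 49.3% higher. At least 2-fold changes were called for 658 rising and 554 falling genes, and for 934 of these 1212 the PPE arrays did not overlap with the sham arrays. Over all 30062 genes, 1398 called higher and 1384 called lower had no such overlap. Protein-coding genes made up 589 of the 2-fold rises but only 352 of the 2-fold falls. Another 133 of the falls were small nucleolar RNA genes, some of which carried identical values. In whole aorta, fewer cells of a type and less RNA per cell cannot be told apart, and the part that the marker lists above have in any difference was not tested.

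**Figure D1:**
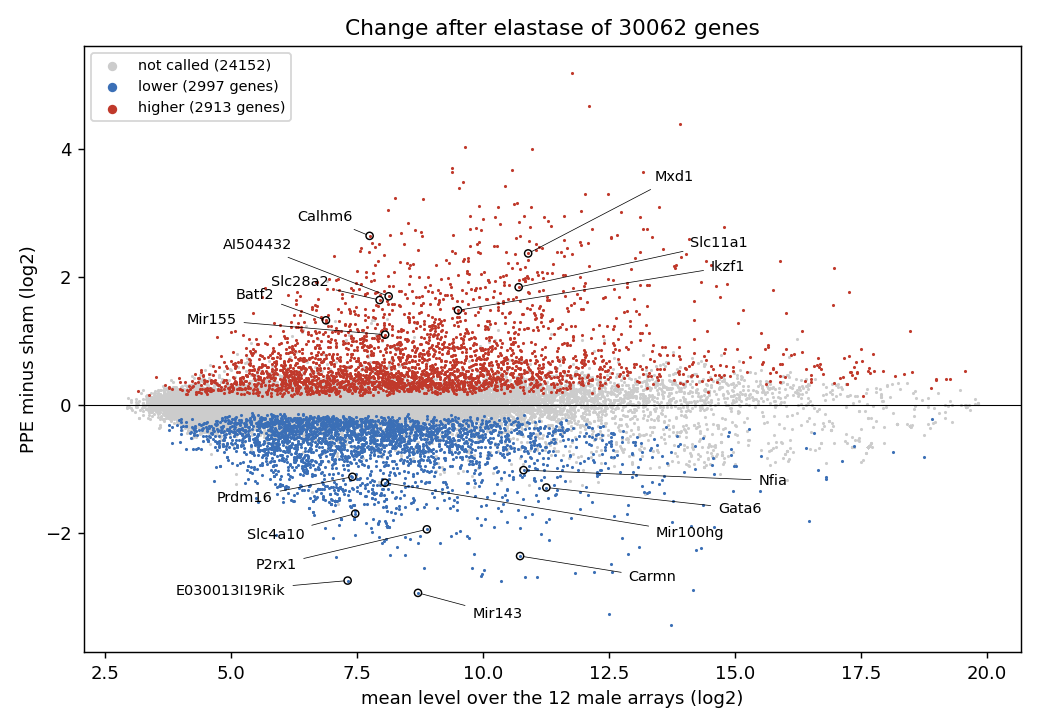
PPE minus sham difference (log2 units) of each of 30062 genes against its mean log2 level over the 12 arrays; red points were called higher (2913), blue points lower (2997) and grey points not called. Circles mark genes described in the text: the channel gene Calhm6 (2.64) and the transcription factor gene Mxd1 (2.37) lie far above 0, the microRNA gene Mir143 (−2.94) and the long non-coding RNA Carmn (−2.36) far below.

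Without sham 4, sham 5 and PPE 1, 5852 genes were called (19.5%), 2753 higher (9.16%) and 3099 lower (10.3%). Of these, 4482 were also called with all arrays, each in the same direction, which is 75.8% of the calls with all arrays and 76.6% of the calls without the 3. The overlap was larger among strong changes: of the 1212 genes called at least 2-fold, 1090 were called without the 3 arrays, and of the 934 that also did not overlap between groups, 922 were. Both fits shared arrays, and groups that do not overlap stay apart when arrays are left out. These counts are therefore not an independent check of the strong changes.

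The promoters of the strongly changed genes differed in the short motifs they held. RefSeq windows (GRCm38.p6) from 250 bases before to 50 after a transcript start were searched on both strands for 6 motifs, in 540 windows of 447 genes that rose at least 2-fold without overlap of the groups, 297 windows of 238 genes that fell likewise, and 21924 windows of 18007 measured genes. The core of the interferon-stimulated response element, GAAANNGAAA, stood in 15.2% of the windows of rising genes, 2.02% of those of falling genes and 3.31% of all. The box GAGGAAGT, bound by PU.1 of myeloid and B cells, stood in 12%, 3.70% and 3.08%. The gamma interferon activated site TTCNNNGAA stood in 11.5%, 4.71% and 7.87%. The CArG box, which serum response factor binds, had the opposite order, with 0.741%, 3.70% and 1.51%. The MCAT box CATTCC, read by TEAD factors, was common everywhere (12.2%, 16.8% and 13.7%), and the palindrome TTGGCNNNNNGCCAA of nuclear factor I was found in 1, 0 and 6 windows. The response element core and the PU.1 box stood together in 8 windows of rising genes and 24 of all windows. These shares are descriptions without a test, and a match is not a bound site. The 4 windows below show 1 match each, in capitals, for genes whose values follow. They are Calhm6 (chr10:34127923-34128222, minus strand, response element core at −64 from the start), Atp8b4 (chr2:126491504-126491803, minus strand, a start site inside the gene, PU.1 box at −115), Vav1 (chr17:57278850-57279149, plus strand, PU.1 box at −11) and Slc25a23 (chr17:57059793-57060092, minus strand, CArG box at −205).
Calhm6: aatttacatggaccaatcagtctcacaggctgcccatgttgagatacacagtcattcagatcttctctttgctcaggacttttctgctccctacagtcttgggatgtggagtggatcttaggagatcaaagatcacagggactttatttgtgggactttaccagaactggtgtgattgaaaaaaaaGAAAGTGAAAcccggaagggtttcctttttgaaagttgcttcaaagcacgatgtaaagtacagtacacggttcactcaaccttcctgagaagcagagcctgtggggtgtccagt
Atp8b4: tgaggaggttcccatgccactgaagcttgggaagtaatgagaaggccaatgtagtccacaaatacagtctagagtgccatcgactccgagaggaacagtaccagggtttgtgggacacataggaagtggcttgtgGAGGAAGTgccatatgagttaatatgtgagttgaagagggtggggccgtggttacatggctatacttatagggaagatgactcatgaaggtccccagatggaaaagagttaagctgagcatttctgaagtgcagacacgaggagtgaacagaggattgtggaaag
Vav1: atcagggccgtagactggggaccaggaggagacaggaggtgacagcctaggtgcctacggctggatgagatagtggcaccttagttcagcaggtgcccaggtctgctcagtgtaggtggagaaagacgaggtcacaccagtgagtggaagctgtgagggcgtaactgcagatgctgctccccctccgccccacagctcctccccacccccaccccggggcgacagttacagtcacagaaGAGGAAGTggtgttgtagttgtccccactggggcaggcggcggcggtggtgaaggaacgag
Slc25a23: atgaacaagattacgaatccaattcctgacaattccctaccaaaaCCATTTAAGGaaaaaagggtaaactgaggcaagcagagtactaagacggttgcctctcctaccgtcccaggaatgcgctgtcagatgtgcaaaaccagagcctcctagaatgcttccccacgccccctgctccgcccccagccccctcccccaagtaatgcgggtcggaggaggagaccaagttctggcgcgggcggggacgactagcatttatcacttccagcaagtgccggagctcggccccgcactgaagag

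Carriers of the solute carrier (SLC) superfamily move nutrients, ions and metabolites across membranes. They were called about as often as all genes and less often than protein-coding genes (19.5%, 19.7% and 25.1%). Of 370 measured, 48 rose and 24 fell (12.97% and 6.49% of the list), with a median difference of 0.03. The shares were 9.69% and 9.97% of all genes and 12.7% and 12.4% of protein-coding genes. Without the 3 arrays the counts were 44 and 33, and with median centring 57 and 16. The direction differed between families: amino acid and peptide carriers had 13 higher and 3 lower of 57 (11 and 3 without the 3 arrays), metal ion carriers 7 and 0 of 34 (6 and 1), and nucleoside and nucleotide-sugar carriers 5 and 0 of 34 (4 and 1). Sodium-calcium exchangers had 0 higher and 2 lower of 8, and sodium, acid and ATP gated channels 1 and 5 of 28. For ATP-binding cassette (ABC) transporters the balance flipped with the scaling and the arrays, from 4 higher and 10 lower of 48 to 6 and 5 with median centring and to 7 and 6 without the 3 arrays.

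The largest rises among carriers and channels belonged to genes known from macrophages and other leukocytes. Calhm6 (chr10:34126067-34127972), of the family of large-pore calcium homeostasis modulator channels, stood at 6.05, 6.18, 6.27, 6.15 and 6.39 in sham arrays 1 to 5 and at 7.89 to 9.63 after PPE (median 8.87). The sham arrays lay within a narrow band and every PPE array was above it, a rise of 2.64 ± 0.28 (SE, 6.25-fold, adjusted p = 3.32e-06). Atp8b4 (chr2:126320973-126500669), a flippase-type ATPase that moves phospholipids between membrane leaflets, read 8.31, 8.91, 8.97, 7.73 and 8.45 in sham and 9.60 to 11.22 in PPE arrays (median 10.67). It rose by 2.06 ± 0.25 (4.18-fold, adjusted p = 1.13e-05), with sham 4 lowest and PPE 1 lowest of their groups. Slc11a1 (chr1:74375014-74386057), which pumps iron and manganese out of the macrophage phagosome, read 9.61, 10.40, 9.80, 9.10 and 9.26 in sham and 11.10 to 12.05 in PPE arrays (median 11.48). Its rise was 1.84 ± 0.25 (3.58-fold, adjusted p = 2.94e-05) and 1.60 without the 3 arrays. These rises went with the macrophage marker list (7 of 8 higher), and its part in them was not tested.

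Single carriers of nucleosides, peptides and amino acids also rose. Slc28a2 (chr2:122426357-122461152), which takes up purine nucleosides with sodium, read 6.83, 7.11, 6.71, 7.55 and 6.76 in sham and 7.92 to 9.41 in PPE arrays (median 8.59). Sham 4 was the highest of its group, and the rise of 1.64 ± 0.25 (3.12-fold, adjusted p = 0.000102) was 1.87 without the 3 arrays. Slc29a3, the nucleoside carrier of lysosomes, rose by 1.01 ± 0.18 (adjusted p = 0.00037). Slc15a3 (chr19:10842544-10857915), which exports histidine and peptides from endolysosomes, read 8.47, 8.97, 8.90, 8.22 and 8.60 in sham and 9.97 to 10.79 in PPE arrays (median 10.06), a rise of 1.62 ± 0.18 (3.07-fold, adjusted p = 5.35e-06). The neutral amino acid exchanger gene Slc7a8 rose by 1.45 ± 0.26 (adjusted p = 0.000463). Slc7a11, the cystine-glutamate exchanger that feeds glutathione synthesis, read 7.71, 7.74, 7.98, 7.92 and 7.18 in sham and 8.48 to 9.96 in PPE arrays and rose by 1.38 ± 0.34 (adjusted p = 0.00722). This call was lost without the 3 arrays (1.28, adjusted p = 0.0542).

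Among the other rising carriers were those of lipid and energy metabolism. Abcg1 (chr17:31057694-31117984), which exports cholesterol from macrophages, stood at 8.43, 8.68, 8.73, 8.44 and 8.28 in sham and 9.39 to 10.51 in PPE arrays (median 10.34). It was 2.86-fold higher (1.52 ± 0.20, adjusted p = 2.61e-05), with no overlap. The lactate exporter gene Slc16a3 rose by 0.99 ± 0.12 (adjusted p = 1.53e-05) and the lysosomal hexose carrier gene Slc2a6 by 0.83 ± 0.09 (adjusted p = 4.82e-06). Slc25a5 (chrX:36795597-36798808), which swaps ADP for ATP across the inner mitochondrial membrane, lay at 12.95, 13.13, 13.37, 13.10 and 12.85 in sham and 13.83 to 14.09 in PPE arrays, a small but tight rise of 0.90 ± 0.08 (1.87-fold, adjusted p = 1.02e-06). Trpm2, a cation channel opened by ADP-ribose in leukocytes, was likewise tight, at 6.06 to 6.18 in sham and 6.64 to 7.08 in PPE arrays (0.72 ± 0.07, adjusted p = 2.91e-06).

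The falling carriers and channels were led by genes of excitable and contractile cells. P2rx1 (chr11:72999056-73015200), the ATP-gated cation channel through which sympathetic nerves contract arteries, stood at 10.46, 10.15, 8.88, 10.37 and 10.25 in sham and at 7.35 to 8.86 after PPE (median 8.11). Sham 3 was far below its group and only just above the highest PPE array. It fell by 1.95 ± 0.30 (3.85-fold, adjusted p = 0.000105). Nalcn (chr14:123275678-123627330), the sodium leak channel that sets the resting potential, read 8.38, 8.03, 7.60, 7.81 and 8.21 in sham and 6.46 to 6.92 in PPE arrays (median 6.72) and fell by 1.34 ± 0.13 (2.53-fold, adjusted p = 1.62e-06). Pkd1, which encodes polycystin 1, fell by 1.16 ± 0.17 (adjusted p = 8.5e-05), with sham 5 at 12.21 and the other sham arrays at 10.92 to 11.12, and the difference was −0.87 without the 3 arrays. Gabre (chrX:72256926-72274828), a GABA-A receptor subunit gene, fell by 1.15 ± 0.15 (adjusted p = 2.95e-05). The smooth muscle marker list fell in the same arrays (8 of 9 lower), and its part was not tested.

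Single exchangers and mitochondrial carriers fell as well. Over the lists, 3 rose and 3 fell of 29 bicarbonate, proton and anion exchangers (4 and 3 without the 3 arrays), and 6 rose and 3 fell of 46 mitochondrial carriers (6 and 6). Slc4a10 (chr2:62046472-62326743), a sodium-coupled bicarbonate carrier, read 9.66, 8.42, 7.84, 7.62 and 8.75 in sham and 6.51 to 7.00 in PPE arrays (median 6.81). The sham arrays were widely spread and the PPE arrays were not, with a fall of 1.70 ± 0.26 (3.25-fold, adjusted p = 0.000117). Slc25a23 (chr17:57043711-57059909), which carries ATP-magnesium and phosphate into mitochondria, read 9.93, 9.37, 9.00, 9.95 and 9.29 in sham and 7.42 to 8.39 in PPE arrays (median 8.09), and its window with a CArG box is printed above. It fell by 1.52 ± 0.21 (2.87-fold, adjusted p = 3.66e-05). Slc24a3, which exchanges calcium for sodium and potassium, read 9.33, 8.99, 8.91, 9.66 and 9.41 in sham and 7.92 to 8.30 in PPE arrays and fell by 1.11 ± 0.11 (adjusted p = 2.29e-06). Abca8a, a lipid transporter gene, was split within the sham group, at 11.54 and 11.46 in sham 1 and 2 and 10.04 to 10.24 in the other 3, and at 9.15 to 9.61 after PPE (fall of 1.21 ± 0.27, adjusted p = 0.00334).

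Connexins, the subunits of gap junctions, were counted with the pannexins. Of these 24 genes, which include the calcium homeostasis modulators, 3 rose and 6 fell, so that 37.5% were called against 19.7% of all genes, and 2 rose and 3 fell without the 3 arrays. Gjc1, which encodes connexin 45, read 7.94, 7.85, 7.89, 7.97 and 7.97 in sham and 7.49 to 7.73 in PPE arrays, without overlap. It fell by 0.35 ± 0.05 (adjusted p = 6.57e-05), and the difference was −0.30 without the 3 arrays (adjusted p = 0.00136). Gja1, which encodes connexin 43, lay at 7.22 to 7.49 in sham and 6.89 to 7.20 in PPE arrays (fall of 0.36 ± 0.10, adjusted p = 0.0112), but its call was lost without the 3 arrays (−0.28, adjusted p = 0.112). Gja4, connexin 37 of the endothelium, fell by 0.38 ± 0.10 (adjusted p = 0.015), with PPE 6 lowest at 5.94. Its call was lost without the 3 arrays (−0.34, adjusted p = 0.0807), without sham 5 alone (adjusted p = 0.051) and with median centring (adjusted p = 0.052).

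**Figure D2:**
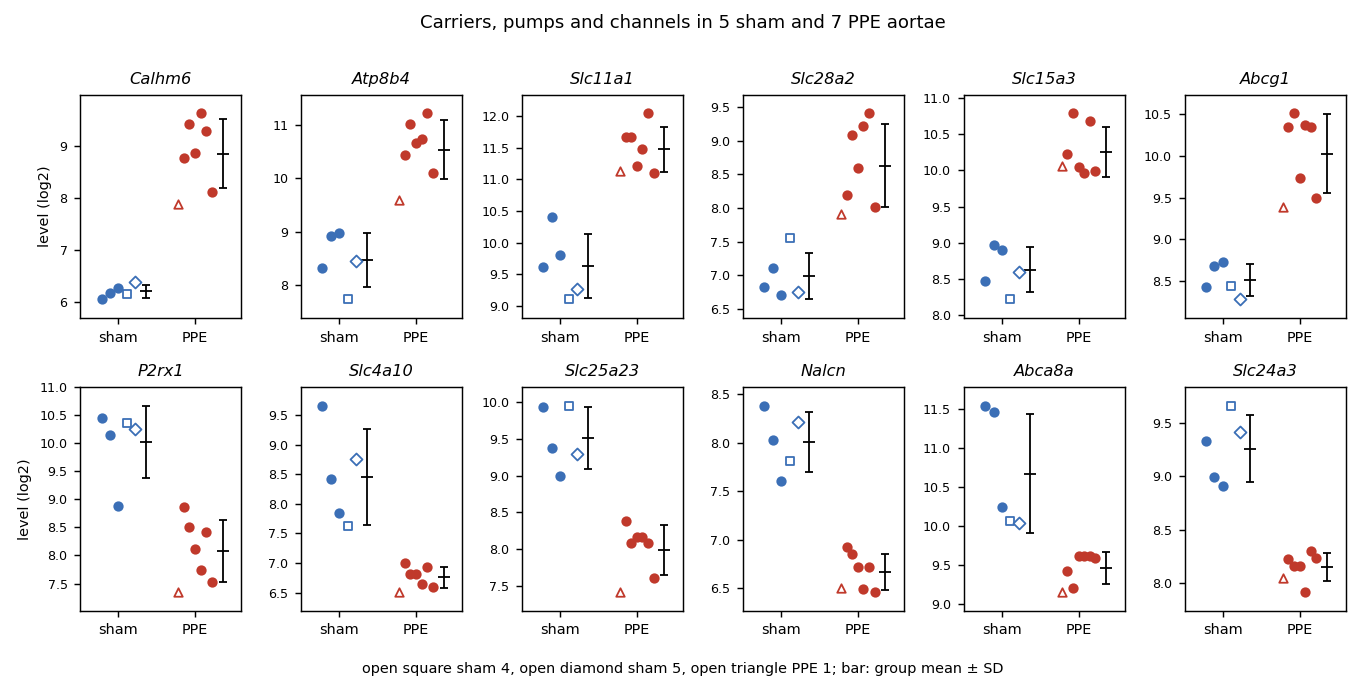
Log2 levels of 6 rising (top) and 6 falling (bottom) carrier and channel genes in each sham (blue) and PPE (red) array, with the group mean and SD as bars; open square, diamond and triangle are sham 4, sham 5 and PPE 1. In all 12 panels the groups do not overlap; for P2rx1 sham 3 (8.88) lies just above the highest PPE array (8.86), and for Slc4a10 the sham arrays spread from 7.62 to 9.66.

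Transcription factor genes were called more often than all genes and less often than protein-coding genes (22.6%, 19.7% and 25.1%), with more falls than rises. Of 848 in the lists 67 rose and 125 fell (7.90% and 14.7%), with a median difference of −0.02. The excess of falls came largely from the Zfp zinc finger genes, of which 17 rose and 59 fell among 386, while 50 rose and 66 fell of the other 462. It depended on the processing: with median centring 70 rose and 75 fell, and without the 3 arrays 54 rose and 176 fell. The Zfp genes moved with sham 4 and 5, whose medians over the list were 7.47 and 7.48, close to the PPE arrays (7.45 to 7.61), while sham 1 to 3 had 7.69 to 7.74. Few factors changed strongly, with 5 rises and 7 falls of at least 2-fold.

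A list with falls only among its calls was that of the nuclear factor I, TEAD and MEF2 families with their co-factors. None of its 17 measured genes rose and 9 fell (52.9%, against 9.97% of all genes), with a median difference of −0.43 beside 0.006 over all genes. The counts were 0 and 10 without the 3 arrays, 0 and 8 with median centring and 0 and 9 with quantile normalization. All 4 nuclear factor I genes, which bind promoters and enhancers as dimers, fell without overlap of the groups. Nfia (chr4:97578066-98118876) read 11.72, 11.42, 11.04, 11.46 and 11.36 in sham and 10.22 to 10.51 in PPE arrays (median 10.38). The PPE arrays lay close together, and the fall was 1.02 ± 0.09 (2.03-fold, adjusted p = 1.2e-06). Nfib (chr4:82290173-82506751) read 12.49, 12.18, 12.24, 11.96 and 12.11 in sham and 11.22 to 11.53 in PPE arrays and fell by 0.80 ± 0.08 (1.74-fold, adjusted p = 2.86e-06). Nfic fell by 0.67 ± 0.12 (adjusted p = 0.000499) and Nfix by 0.65 ± 0.10 (adjusted p = 6.71e-05), the latter with PPE 5 lowest at 10.35.

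The other 5 falling members of that list are named to complete it, after their values were seen. Tead3, a DNA-binding partner of the Hippo pathway, fell by 0.51 ± 0.09 (adjusted p = 0.000395). Yap1 and Wwtr1 encode the co-factors that Hippo signalling keeps out of the nucleus. They fell by 0.43 ± 0.12 (adjusted p = 0.015) and 0.54 ± 0.10 (adjusted p = 0.000958), with overlapping groups for both, and the Yap1 call was lost with median centring (adjusted p = 0.0841). Vgll3, another TEAD co-factor, fell by 0.70 ± 0.17 (adjusted p = 0.00739) and Mef2c, a factor of muscle genes, by 0.74 ± 0.15 (adjusted p = 0.00167), again with overlap. The smooth muscle list fell by a median of 1.89 and the fibroblast list by a median of 0.74 in the same arrays, and their part was not tested.

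Other falling factors are known from smooth muscle, pericytes and mesenchyme. Gata6 (chr18:11052510-11085636), a zinc finger factor of vascular smooth muscle, read 12.11, 12.11, 12.17, 11.77 and 11.90 in sham and 10.52 to 10.94 in PPE arrays (median 10.78). It fell by 1.29 ± 0.11 (2.45-fold, adjusted p = 7.11e-07), and every array kept its side by a wide gap. Prdm16 (chr4:154316122-154637360), a zinc finger regulator of arterial and brown fat identity, read 8.21, 7.99, 7.60, 8.23 and 8.30 in sham and 6.70 to 7.25 in PPE arrays, a fall of 1.12 ± 0.13 (2.18-fold, adjusted p = 5.34e-06). Prdm6, a smooth muscle repressor of the same family, fell by 1.02 ± 0.08 (adjusted p = 5.37e-07). Epas1, the hypoxia factor HIF-2 alpha, fell by 1.00 ± 0.17 (adjusted p = 0.00025), with sham 4 and 5 at 12.17 and 12.08 and the other sham arrays at 11.32 to 11.35, and by less without the 3 arrays (−0.73).

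Of 121 homeobox genes outside the HOX clusters 3 rose and 11 fell (2.48% and 9.09%), so that the share of falls was near the 9.97% of all genes, and median centring gave 6 and 8. Of 39 forkhead genes 1 rose and 7 fell (2.56% and 17.9%), and 1 and 9 without the 3 arrays. The homeobox genes Zfhx3 and Meis1 fell by 0.95 ± 0.11 (adjusted p = 6.95e-06) and 0.82 ± 0.14 (adjusted p = 0.000247). The forkhead genes Foxc1 and Foxp2 fell by 0.94 ± 0.12 (adjusted p = 1.71e-05) and 0.88 ± 0.16 (adjusted p = 0.000443). Tbx18, a T-box factor of mural cells, fell by 0.82 ± 0.10 (adjusted p = 1.82e-05). Chromatin enzymes were balanced, with 15 higher and 14 lower of 113 (14 and 18 without the 3 arrays). Smarca2, the BRM ATPase of the SWI/SNF remodelling complex, read 11.91, 11.75, 11.67, 11.45 and 11.59 in sham and a median of 10.82 in PPE arrays without overlap, and fell by 0.83 ± 0.08 (adjusted p = 2.29e-06). In contrast, the remodeller gene Chd7 rose by 0.87 ± 0.11 (adjusted p = 2.05e-05).

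The rising factors included a MAX partner and factors of leukocytes. Mxd1 (chr6:86647044-86669234), which pairs with MAX and represses the targets of MYC, read 9.23, 9.42, 9.93, 9.31 and 9.68 in sham and 11.03 to 12.60 in PPE arrays (median 11.81). It was 5.17-fold higher (2.37 ± 0.29, adjusted p = 1.03e-05). Its partner gene Max rose by 0.59 ± 0.10 (adjusted p = 0.000328), at 10.58 to 11.02 in sham and 11.16 to 11.71 in PPE arrays, whereas Mxd4, another repressor of the same type, fell by 0.66 ± 0.11 (adjusted p = 0.000339). Ikzf1 (chr11:11684962-11772930), which encodes Ikaros of lymphoid and myeloid cells, read 8.64, 9.05, 8.57, 8.33 and 8.61 in sham and 9.49 to 10.63 in PPE arrays, a rise of 1.48 ± 0.19 (2.79-fold, adjusted p = 1.63e-05). Of 31 genes of the RUNX, Ikaros, PRDM and BCL6 families 9 rose and 4 fell (8 and 5 without the 3 arrays), and of 23 ETS genes 6 rose and 1 fell (also without them). Prdm1, which drives terminal differentiation of lymphocytes, rose by 0.99 ± 0.14 (adjusted p = 4.07e-05), in the direction opposite to Prdm6 and Prdm16, and the ETS repressor gene Etv3 by 0.79 ± 0.10 (adjusted p = 1.42e-05).

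Among leucine zipper factors 9 of 39 rose and 5 fell (23.1% and 12.8%, against 9.69% and 9.97% of all genes), and 9 and 4 without the 3 arrays. Batf2 (chr19:6164397-6172476), which is induced by interferon in macrophages, was tight at 6.00, 6.19, 6.02, 6.18 and 6.17 in sham and stood at 6.97 to 7.86 after PPE, a rise of 1.32 ± 0.15 (2.5-fold, adjusted p = 7.99e-06). Tfec, a macrophage factor of the MITF family, rose by 1.19 ± 0.19 (adjusted p = 0.000175). Eomes, a T-box factor of cytotoxic T and NK cells, was low in every array, at 5.39 to 5.73 in sham and 6.12 to 7.04 in PPE arrays (1.05 ± 0.14, adjusted p = 3.5e-05). Macrophage and T and NK cell markers rose in the same arrays (7 of 8 and 8 of 8), and their part in these rises was not tested.

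**Figure D3:**
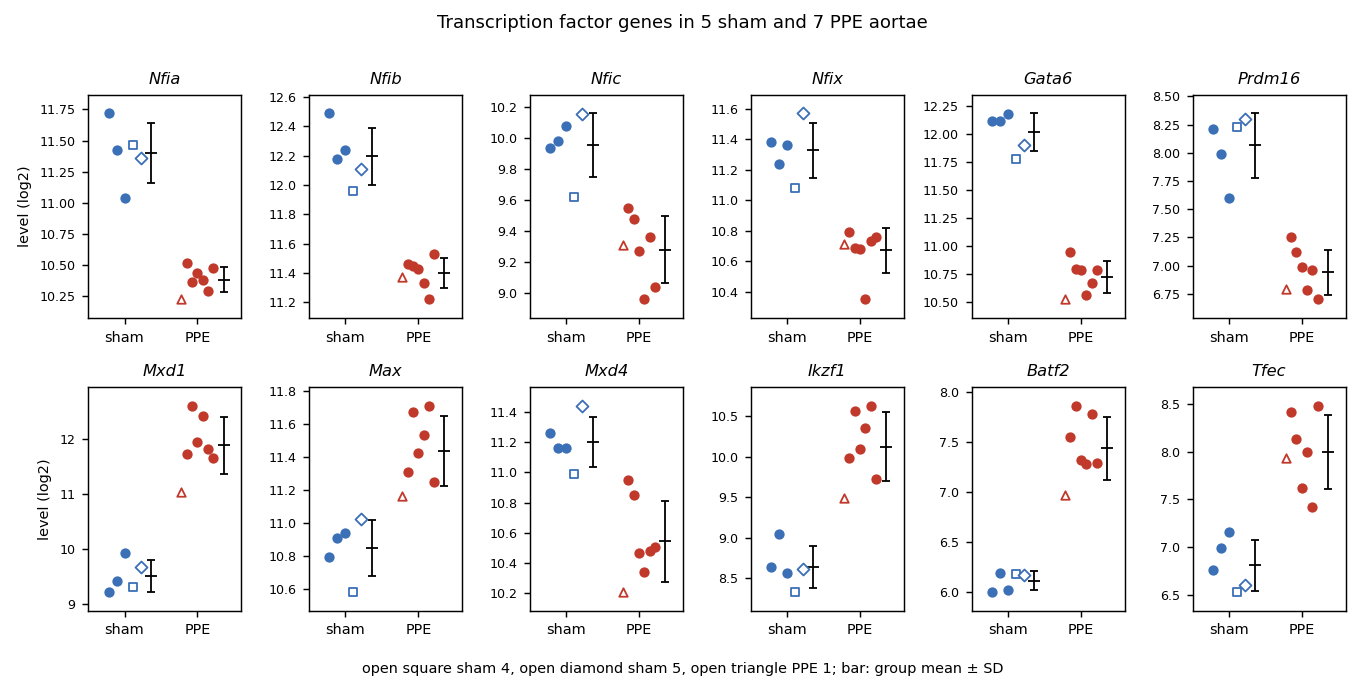
Log2 levels of 12 transcription factor genes in each sham (blue) and PPE (red) array, with the group mean and SD as bars; open square, diamond and triangle are sham 4, sham 5 and PPE 1. The 4 nuclear factor I genes, Gata6, Prdm16 and Mxd4 are lower and Mxd1, Max, Ikzf1, Batf2 and Tfec higher in every PPE array than in any sham array.

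Long non-coding RNA genes, which make transcripts without a protein product, were called less often than protein-coding genes. Of 3198 typed as such in RefSeq 93 rose and 153 fell (7.69%), beside 2425 and 2367 of 19064 protein-coding genes (25.1%). The direction of the count flipped with the scaling, to 179 higher and 112 lower with median centring, and was 124 and 167 without the 3 arrays and 139 and 149 with quantile normalization. Only 32 changed at least 2-fold, 14 higher and 18 lower. Their levels were low, with array medians of 4.84 to 5.09 over the list, where all genes had medians of 6.12 to 6.37.

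Called long non-coding RNAs often lay next to a protein-coding gene that moved the same way. Within 10000 bp of their nearest coding gene were 52 of the rising, 88 of the falling and 1680 of the uncalled transcripts. The nearest coding gene was called higher for 22 (42.3%) and lower for 4 (7.69%) of the rising transcripts, and lower for 49 (55.7%) and higher for 3 (3.41%) of the falling. Beside uncalled transcripts the shares were 12% higher and 18.4% lower. Where a transcript overlaps its neighbour, probes of either may read the other, since the strand of the probes is not stated in the labels.

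Several non-coding RNAs at genes known from smooth muscle fell. Carmn (chr18:61645878-61665538), a smooth muscle transcript known to act with myocardin, read 12.53, 12.08, 11.35, 12.03 and 12.59 in sham and 9.01 to 10.23 in PPE arrays (median 9.69). The groups were far apart, and the fall was 2.36 ± 0.21 (5.15-fold, adjusted p = 1.02e-06). Mir143 (chr18:61649196-61649258), the microRNA gene that lies inside it and is known to keep smooth muscle contractile, read 11.16, 10.66, 9.36, 10.34 and 10.61 in sham and 6.87 to 8.17 in PPE arrays, a fall of 2.94 ± 0.28 (7.68-fold, adjusted p = 1.49e-06). E030013I19Rik (chr2:12301246-12312315) overlaps Itga8, the integrin alpha 8 gene, and fell by 2.75 ± 0.28 (6.72-fold, adjusted p = 2.7e-06) while Itga8 fell by 3.44 ± 0.35 (adjusted p = 2.54e-06). 5930403L14Rik (chr4:154630691-154636367), which overlaps Prdm16, fell by 1.46 ± 0.20 (adjusted p = 3.18e-05), and Gata6os (chr18:11042037-11052567), which overlaps Gata6, by 0.76 ± 0.10 (adjusted p = 2.04e-05). Itga8 was chosen as a neighbour after its values were seen, and the part of the smooth muscle marker list in these falls was not tested.

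**Figure D4:**
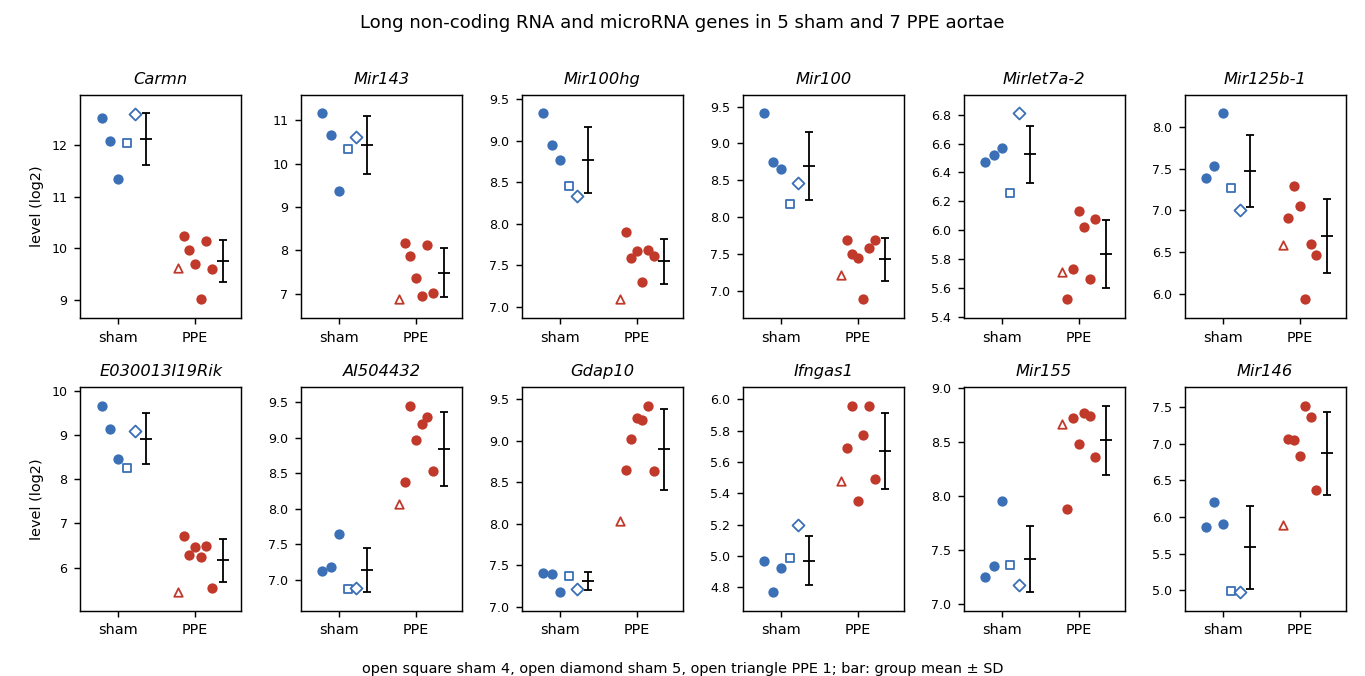
Log2 levels of 12 non-coding RNA genes in each sham (blue) and PPE (red) array, with the group mean and SD as bars; open square, diamond and triangle are sham 4, sham 5 and PPE 1. Carmn and Mir143 fall together, as do Mir100hg and the 3 microRNA genes inside it (the groups overlap for Mir125b-1), and the groups also overlap for Mir155 and Mir146, with sham 3 at 7.95 for Mir155 and PPE 1 at 5.89 for Mir146.

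MicroRNA genes, whose hairpin transcripts are cut to short guides that repress messenger RNAs through their seed (bases 2 to 8), were called rarely. Of 610, 24 rose and 38 fell (3.93% and 6.23%, against 9.69% and 9.97% of all genes). The balance flipped to 39 and 29 with median centring and was 32 and 37 without the 3 arrays. Whether a probe set reads the precursor or the mature strand is not stated in the labels. Of the 610 genes 504 had a hairpin in the RefSeq table (GRCm38.p6). The mature sequences of the microRNAs described, except that of Mir143, are shown with the seed in capitals, grouped by seed. Members of the falling cluster on chromosome 9 share their seeds with those of a related cluster on chromosome 16. The first pair shares the seed ACCCGUA, the second GAGGUAG, and miR-125b-5p, with the seed CCCUGAG, is made from both clusters. The last lines are the others shown, from outside the clusters: miR-224-5p, and miR-155-5p, miR-146a-5p and both strands of miR-142a, each with a seed of its own.
miR-100-5p: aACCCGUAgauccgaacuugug
miR-99a-5p: aACCCGUAgauccgaucuugug
let-7a-5p: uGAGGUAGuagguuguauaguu
let-7c-5p: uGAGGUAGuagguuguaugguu
miR-125b-5p: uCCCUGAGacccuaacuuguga
miR-224-5p: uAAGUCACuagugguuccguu
miR-155-5p: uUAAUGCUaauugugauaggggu
miR-146a-5p: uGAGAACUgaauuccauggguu
miR-142a-5p: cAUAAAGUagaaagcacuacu
miR-142a-3p: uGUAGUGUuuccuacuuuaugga

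On chromosome 9 the host transcript and its 3 microRNA genes all fell. Its host transcript Mir100hg (chr9:41376526-41615185) read 9.33, 8.95, 8.77, 8.45 and 8.33 in sham and 7.09 to 7.90 in PPE arrays (median 7.61). It fell by 1.22 ± 0.15 (2.33-fold, adjusted p = 1.8e-05) without overlap, while the nearest coding gene was 214834 bp away. Mir100 (chr9:41531425-41531504) read 9.41, 8.75, 8.66, 8.18 and 8.47 in sham and 6.89 to 7.69 in PPE arrays and fell by 1.26 ± 0.17 (2.39-fold, adjusted p = 4.04e-05). Mirlet7a-2 (chr9:41536716-41536811) fell by 0.69 ± 0.11 (adjusted p = 0.000154), and Mir125b-1 (chr9:41581926-41582002) by 0.79 ± 0.20 (adjusted p = 0.00908), the latter with overlap. Mirlet7a-2, Mir125b-1 and the genes of the related cluster were chosen after values were seen.

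In the related cluster on chromosome 16, 3 of the 4 genes were called lower, each with overlap of the groups. Mir99ahg (chr16:77329328-77558428), named as the host of Mir99a, ended before the microRNA genes of the cluster by the positions used here. It read 9.03, 8.79, 8.60, 8.27 and 8.17 in sham and 7.98 to 8.53 in PPE arrays, with overlap (fall of 0.39 ± 0.13, adjusted p = 0.0456). Its call was lost without any 1 array other than sham 4, sham 5 or PPE 7. Mir99a (chr16:77598936-77599000) fell by 0.49 ± 0.15 (adjusted p = 0.0231), and its call was lost without sham 1, sham 2 or sham 4 alone (−0.48, −0.47 and −0.44) and without the 3 arrays (adjusted p = 0.0517). Mirlet7c-1 (chr16:77599657-77599750) fell by 0.75 ± 0.24 (adjusted p = 0.0367), and its call was lost without any 1 array other than sham 4, sham 5, PPE 4 or PPE 7. Mir125b-2 (chr16:77646273-77646343) was not called (−0.21 ± 0.17, adjusted p = 0.494), but was without the 3 arrays (−0.49, adjusted p = 0.0383). In Mir99ahg, Mirlet7c-1 and Mir125b-2 sham 4 and 5 were the lowest sham arrays, and without the 3 arrays the differences were −0.59 for Mir99ahg and −1.06 for Mirlet7c-1. Whether the clusters fell by different amounts was not tested.

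A microRNA gene inside a channel gene fell with its host. Mir224 (chrX:72261031-72261112) lies within Gabre (chrX:72256926-72274828). It read 7.95, 7.86, 7.71, 8.16 and 8.69 in sham and 6.76 to 7.47 in PPE arrays, a fall of 0.96 ± 0.15 (1.94-fold, adjusted p = 0.000138), beside the fall of 1.15 of Gabre. Sham 5 was the highest array for Mir224, and the difference was −0.75 without the 3 arrays.

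MicroRNA genes of leukocytes rose, as chosen after their values were seen. Mir155 (chr16:84714140-84714204), which is induced in activated macrophages and lymphocytes, read 7.25, 7.35, 7.95, 7.36 and 7.18 in sham and 7.88 to 8.77 in PPE arrays (median 8.67). Only sham 3 reached into the range of the PPE arrays, and the rise was 1.10 ± 0.16 (2.14-fold, adjusted p = 8.68e-05). Mir146 (chr11:43374397-43374461), which dampens Toll-like receptor signalling, rose by 1.28 ± 0.27 (2.43-fold, adjusted p = 0.00216), with sham 4 and 5 lowest at 4.99 and 4.98. Mir142 (chr11:87756864-87756927), a marker of blood cells, rose by 0.78 ± 0.18 (adjusted p = 0.00489) and by more without the 3 arrays (1.14). Sham 4 and 5 were its highest sham arrays (7.80 and 8.40, with 7.08 to 7.35 in the others).

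Some of the long non-coding RNAs that rose most lay at coding genes that rose. AI504432 (chr3:107039504-107054322) lies 1375 bp from Kcna3, a potassium channel gene of lymphocytes, and read 7.12, 7.18, 7.64, 6.87 and 6.88 in sham and 8.06 to 9.45 in PPE arrays. It rose by 1.70 ± 0.24 (3.25-fold, adjusted p = 5.11e-05) beside a rise of 1.19 ± 0.21 for Kcna3. Gdap10 (chr12:32824116-32826919) overlaps Nampt, the rate-limiting enzyme of NAD salvage, which was chosen as its neighbour. Gdap10 was at 7.18 to 7.41 in sham and 8.03 to 9.42 in PPE arrays and rose by 1.58 ± 0.23 (adjusted p = 7.14e-05), and Nampt by 1.31 ± 0.19 (adjusted p = 5.25e-05). D730005E14Rik rose by 1.43 ± 0.17 (adjusted p = 1.06e-05) over Apobec3, a retrovirus restriction gene (1.19 ± 0.11), and BE692007 by 1.41 ± 0.25 (adjusted p = 0.000429) over Ms4a6c, a myeloid membrane gene (3.10 ± 0.37). Kcna3, Apobec3 and Ms4a6c were likewise chosen as neighbours after their values were seen. 6330407A03Rik (chr4:3714964-3716813) had no coding gene within 10000 bp and rose by 1.69 ± 0.23 (adjusted p = 2.91e-05).

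Transcripts with a described role moved too. Ifngas1 (chr10:118502035-118556525), which lies 56141 bp from Ifng and is known to favour its expression, read 4.97, 4.77, 4.92, 4.99 and 5.20 in sham and 5.35 to 5.96 in PPE arrays, a rise of 0.70 ± 0.11 (1.63-fold, adjusted p = 0.000145). Ifng itself, also low, rose by 1.14 ± 0.21 (adjusted p = 0.00053). Mirt2, a transcript induced by bacterial lipopolysaccharide, was tight in sham (5.57 to 5.97) and rose by 1.14 ± 0.13 (adjusted p = 7.24e-06). Airn (chr17:12741311-12859884), the imprinted transcript that silences Igf2r on the paternal chromosome, fell by 0.72 ± 0.11 (adjusted p = 0.000117), at 8.52 to 8.70 in sham and 7.61 to 8.12 in PPE arrays. Igf2r, which it overlaps, was not called (−0.42 ± 0.15, adjusted p = 0.0678) but was without the 3 arrays (−0.57, adjusted p = 0.0405). Ifng and Igf2r were chosen as neighbours after their values were seen, as was Lncpint, a p53-induced transcript, which fell by 0.45 ± 0.07 (adjusted p = 0.000187).

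Small nucleolar RNA genes and genes that the aorta is not known to use gave few rises, and fewer falls without the 3 arrays. Of 955 small nucleolar RNA genes 12 rose and 166 fell (1.26% and 17.4%, against 9.69% and 9.97% of all genes). The falling genes held only 77 distinct sets of values, since some genes carried identical values. Without the 3 arrays 75 fell, and with median centring 159. Of 1442 olfactory, taste and other sensory receptor genes, taken as a background list, 6 rose and 142 fell (0.416% and 9.85%). Their share of falls was thus near that of all genes, and their share of rises was far below it. The counts were 16 and 73 without the 3 arrays and 12 and 128 with median centring. The median over this list was 4.91 and 5.00 in sham 4 and 5, 4.47 to 4.62 in sham 1 to 3 and 4.50 to 4.74 in PPE arrays. Small nucleolar RNA genes had their highest medians in the same arrays (6.65 and 6.58, with 6.06 to 6.33 in the other sham arrays).

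Kinase genes of immune signalling had more rises than falls. Of 20 Src, Syk, Tec and Jak kinase genes, which start signalling at immune receptors, 13 rose and 2 fell with a median difference of 0.57. These were 65.0% and 10.0%, against 9.69% and 9.97% of all genes, and the counts were 13 and 2 without the 3 arrays. Fgr (chr4:132974095-133001893), a Src kinase of myeloid cells, read 8.41, 8.75, 9.03, 7.88 and 8.24 in sham and 10.14 to 10.97 in PPE arrays (median 10.59). It was 4.25-fold higher (2.09 ± 0.19, adjusted p = 1.22e-06), with a wide gap between the groups. Jak2, the kinase of many cytokine receptors, rose by 1.24 ± 0.18 (adjusted p = 7.33e-05), and the Tec kinase genes Btk of B and myeloid cells and Txk of T cells by 1.19 ± 0.14 (adjusted p = 9.31e-06) and 1.17 ± 0.14 (adjusted p = 8.46e-06). Bmx, the Tec kinase of arterial endothelium, fell by 0.77 ± 0.15 (adjusted p = 0.000868).

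The leukocyte signalling genes Vav1, Dock2, Arhgap30 and Arhgap15 rose, and Arhgef12 and Arhgef17 fell. Vav1 (chr17:57279100-57329236), the exchange factor of blood cells, read 8.64, 9.09, 9.13, 8.38 and 8.77 in sham and 10.07 to 11.10 in PPE arrays (median 10.60). It rose by 1.79 ± 0.19 (3.47-fold, adjusted p = 3.33e-06), and a window at its start holds the PU.1 box printed above. Dock2, which drives leukocyte migration, rose by 1.64 ± 0.19 (adjusted p = 7.01e-06), and the leukocyte genes Arhgap30 and Arhgap15 each by 1.63, with errors of 0.16 and 0.21 (adjusted p = 2.18e-06 and 1.71e-05). Arhgef12, which acts downstream of vasoconstrictor receptors, was tight in sham at 12.51, 12.49, 12.35, 12.48 and 12.53 and stood at 11.15 to 11.71 in PPE arrays. It fell by 1.01 ± 0.08 (2.01-fold, adjusted p = 6.22e-07), and Arhgef17, of the same family, by 1.22 ± 0.14 (adjusted p = 5.1e-06).

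Ppp1r14a, Mylk4, Mrvi1 and Prkg1, genes of contraction and relaxation, fell without overlap of the groups. Ppp1r14a (chr7:29289320-29293390), which encodes the smooth muscle inhibitor of myosin phosphatase CPI-17, read 11.38, 11.32, 10.12, 10.63 and 11.24 in sham and 8.13 to 9.30 in PPE arrays (median 9.03). It fell by 2.08 ± 0.25 (4.22-fold, adjusted p = 1.15e-05), with sham 3 lowest of its group. Mylk4, of the myosin light chain kinase family, fell by 2.03 ± 0.19 (4.09-fold, adjusted p = 1.22e-06). Mrvi1 and Prkg1, which encode a calcium release regulator and the cyclic GMP kinase that acts on it when nitric oxide relaxes the vessel, fell by 1.82 ± 0.23 (adjusted p = 2.14e-05) and 1.31 ± 0.16 (adjusted p = 1.09e-05).

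Orphan receptor genes had more rises than falls. Of 98 orphan and purine receptor genes of the G protein-coupled type 27 rose and 7 fell (26 and 6 without the 3 arrays). These were 27.6% and 7.14%, against 9.69% and 9.97% of all genes. Gpr141 (chr13:19749680-19824336), an orphan receptor gene of myeloid cells, read 6.23, 6.30, 6.69, 6.13 and 6.68 in sham and 7.72 to 9.56 in PPE arrays (median 9.29), a rise of 2.47 ± 0.31 (5.56-fold, adjusted p = 1.57e-05). Gpr65, a proton sensor of leukocytes, and Gpr18 each rose by 2.26, with errors of 0.26 and 0.28 (adjusted p = 6.87e-06 and 1.36e-05), and Gpr84, which responds to medium-chain fatty acids, by 1.96 ± 0.26 (adjusted p = 2.41e-05). Lgr6, a receptor for R-spondins, fell by 1.65 ± 0.19 (adjusted p = 7.13e-06), and the growth factor receptor genes Erbb4 and Fgfr2 by 1.45 ± 0.15 (adjusted p = 2.55e-06) and 1.03 ± 0.15 (adjusted p = 5.83e-05).

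Among 36 tyrosine phosphatase genes 9 rose and 13 fell, with and without the 3 arrays. Ptpn22 (chr3:103856575-103912252), which restrains T cell receptor signalling, read 8.29, 8.72, 8.47, 7.89 and 8.06 in sham and 9.66 to 11.16 in PPE arrays and rose by 2.25 ± 0.22 (4.74-fold, adjusted p = 1.54e-06). Ptpn6, the phosphatase SHP-1 of blood cells, rose by 2.03 ± 0.22 (adjusted p = 4.29e-06). Ptprz1 (chr6:22875315-23052916), a receptor phosphatase known from glia, read 10.60, 9.70, 8.90, 8.92 and 9.86 in sham and 6.82 to 7.82 in PPE arrays and fell by 2.22 ± 0.30 (4.66-fold, adjusted p = 2.97e-05). Ptprb, the endothelial phosphatase of the receptor Tie2, fell by 1.28 ± 0.14 (adjusted p = 5.45e-06), and 3 of 7 endothelial markers were called lower. Phosphoinositide enzymes were balanced (17 higher and 17 lower of 74). Pik3ap1, the adaptor that links immune receptors to PI3 kinase, rose by 2.36 ± 0.32 (5.15-fold, adjusted p = 3.76e-05), with sham 2 highest of its group at 11.12, and Plcb4, a phospholipase C gene of contractile tissue, fell by 1.75 ± 0.16 (3.35-fold, adjusted p = 1.09e-06).

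Enzymes of nucleotide, NAD and sphingolipid metabolism had more rises than falls. Of 58 nucleotide enzymes 15 rose and 3 fell (14 and 5 without the 3 arrays). These were 25.9% and 5.17%, against 9.69% and 9.97% of all genes. Samhd1 (chr2:157097534-157135096), which breaks down deoxynucleotides and so limits retroviruses, was bright at 12.93, 13.43, 13.37, 12.68 and 13.15 in sham and stood at 14.79 to 15.89 in PPE arrays (median 15.55). It rose by 2.26 ± 0.20 (4.79-fold, adjusted p = 1.03e-06). The salvage enzymes Dck, a kinase of deoxynucleosides, and Pnp, a purine nucleoside phosphorylase, rose by 1.57 ± 0.25 (adjusted p = 0.000163) and 1.49 ± 0.20 (adjusted p = 2.56e-05), alongside the nucleoside carriers Slc28a2 and Slc29a3. Of 34 genes of tryptophan breakdown, NAD synthesis and ADP-ribose transfer 13 rose and 1 fell (38.2% and 2.94%), and 13 and 4 without the 3 arrays. Parp14, an interferon-induced ADP-ribosyl transferase, rose by 2.17 ± 0.27 (4.51-fold, adjusted p = 1.57e-05). Kmo, which takes kynurenine towards NAD, read 8.09, 7.95, 7.59, 7.31 and 7.80 in sham and 9.06 to 9.87 in PPE arrays and rose by 1.69 ± 0.18 (3.22-fold, adjusted p = 3.44e-06).

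Sphingolipid enzymes had more rises than falls. Of 38 sphingolipid and ceramide genes 10 rose and 2 fell (26.3% and 5.26%, against 9.69% and 9.97% of all genes). Without the 3 arrays 10 rose and 4 fell. The rises were led by the ceramide synthase gene Cers6 (1.62 ± 0.17, adjusted p = 3.34e-06). Plbd1 (chr6:136612071-136662303), a phospholipase B-like gene of neutrophils and monocytes, read 10.78, 11.29, 11.12, 10.99 and 10.88 in sham and 13.25 to 14.09 in PPE arrays (median 13.46). It rose by 2.63 ± 0.16 (6.18-fold, adjusted p = 2.59e-08), and the groups were far apart. Pla2g7, the plasma phospholipase that inactivates platelet-activating factor, rose by 2.40 ± 0.33 (adjusted p = 3.69e-05) and by less without the 3 arrays (1.72), with sham 4 and 5 lowest at 9.37 and 8.90. Of 189 cytochrome P450 and other xenobiotic enzymes 9 rose and 22 fell (4.76% and 11.6%, the latter near the 9.97% of all genes), and median centring turned the balance to 17 and 16. Gstm1, a glutathione transferase, and Ephx1, the microsomal epoxide hydrolase, fell by 1.41 ± 0.21 (adjusted p = 0.000108) and 1.31 ± 0.17 (adjusted p = 2.24e-05).

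Cell adhesion genes had more falls than rises. Of 110 cadherin, protocadherin and claudin genes 3 rose and 22 fell, with 5 and 21 without the 3 arrays and 6 and 18 with median centring. In total 22.7% of this list were called, against 19.7% of all genes. Only 2.73% of the list rose, whereas 9.69% of all genes rose and 9.97% fell. Cdh13 (chr8:118140017-119324929), the lipid-anchored cadherin that binds adiponectin on vascular cells, read 11.46, 11.29, 10.66, 10.53 and 11.52 in sham and 8.73 to 9.73 in PPE arrays, a fall of 1.79 ± 0.20 (3.45-fold, adjusted p = 4.78e-06). Pcdh7, a bright protocadherin gene, fell by 1.70 ± 0.18 (adjusted p = 3.04e-06) and Cdh6 by 1.58 ± 0.17 (adjusted p = 3.33e-06). Flna, which encodes the actin crosslinker filamin A, read 15.86, 15.71, 15.29, 15.65 and 16.27 in sham and 14.05 to 14.81 in PPE arrays and fell by 1.35 ± 0.15 (2.55-fold, adjusted p = 5.55e-06). Rbpms, a splicing regulator of the smooth muscle programme, fell by 1.83 ± 0.18 (3.55-fold, adjusted p = 1.95e-06). RNA-binding and splicing genes as a list had 26 rises and 10 falls of 118 (22.03% and 8.47%). Tspan2, a tetraspanin of contractile smooth muscle, fell by 1.66 ± 0.23 (adjusted p = 4.8e-05). The smooth muscle markers fell in the same arrays, and their part was not tested.

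Further large changes lay in genes of no list used here. Klrb1b (chr6:128813706-128826315), an inhibitory receptor of NK cells, read 8.07, 7.85, 8.33, 7.45 and 8.42 in sham and 10.56 to 11.14 in PPE arrays (median 11.09). It rose by 2.96 ± 0.16 (7.78-fold, adjusted p = 6.66e-09). Zbp1, a sensor of Z-form nucleic acids that can trigger necroptosis, rose by 3.16 ± 0.37 (8.93-fold, adjusted p = 8.88e-06), and Ifi209, an interferon-induced gene of the Ifi200 family, by 3.30 ± 0.38 (9.84-fold, adjusted p = 6.36e-06). Sost (chr11:101962458-101967015), which encodes the WNT antagonist sclerostin, read 9.63, 8.45, 7.94, 7.43 and 8.91 in sham and 5.33 to 6.87 in PPE arrays and fell by 2.39 ± 0.33 (5.23-fold, adjusted p = 4.1e-05). Cpe, the carboxypeptidase that trims peptide hormones, was bright at 16.10, 15.62, 15.08, 14.87 and 16.12 in sham and 12.79 to 13.83 in PPE arrays, and it fell by 2.28 ± 0.23 (4.85-fold, adjusted p = 2.42e-06). Map3k7cl, a gene of little known function, fell by 2.34 ± 0.29 (adjusted p = 1.38e-05). Tns1, which ties integrins to actin, fell by 2.23 ± 0.20 (adjusted p = 9.93e-07), and Adcy5, an adenylyl cyclase gene, fell by 2.15 ± 0.23 (adjusted p = 4.08e-06).

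Leaving out sham 4, sham 5 and PPE 1 took 1428 calls away (689 higher and 739 lower) and added 1370 (529 and 841). The genes described next had a left-out array in or near the range of the other group, or far from its own. Hhip (chr8:79965850-80058060), a hedgehog antagonist gene, read 10.57, 8.87, 7.86, 6.11 and 6.76 in sham and 5.79 to 7.24 in PPE arrays. Sham 4 and 5 lay within the PPE range, and the difference went from −1.55 ± 0.56 (adjusted p = 0.0639) to −2.50 (adjusted p = 0.00197). Tmem100, a gene of arterial endothelium, and Prelp, a matrix proteoglycan gene, moved the same way, from −0.90 (adjusted p = 0.1) to −1.39 (adjusted p = 0.00143) and from −0.76 (adjusted p = 0.0615) to −1.18 (adjusted p = 0.000725), with sham 4 lowest for both at 7.95 and 12.87. Pparg, the factor of fat cells, read 8.43, 8.40, 7.86, 11.39 and 8.41 in sham and 8.88 to 9.67 in PPE arrays, and its difference went from 0.29 (adjusted p = 0.745) to 1.00 (adjusted p = 0.0152). Slc36a2, an amino acid carrier of fat, had sham 4 at 10.66 and the other sham arrays at 6.34 to 7.10 and went from 0.52 (adjusted p = 0.616) to 1.32 (adjusted p = 0.014). In the same array the white and brown fat lists stood at 12.75 and 9.86, and their part was not tested.

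Of 13 clock genes 8 were called lower and 0 higher with all arrays (9.97% and 9.69% of all genes), and 5 and 0 without the 3. Npas2 (chr1:39193702-39363240), an activator of the clock, read 10.12, 10.33 and 10.07 in sham 1 to 3 but 7.80 and 7.62 in sham 4 and 5, with PPE arrays between at 8.47 to 8.93. The difference was −0.48 ± 0.39 with all arrays (adjusted p = 0.477) and −1.44 without the 3 (adjusted p = 1.82e-05). Nr1d1 (chr11:98767932-98775377), a clock repressor, had the opposite order, at 10.11, 8.88 and 9.07 in sham 1 to 3, 11.23 and 11.21 in sham 4 and 5 and 7.83 to 9.03 after PPE. It was called with all arrays (−1.49 ± 0.37, adjusted p = 0.00659) and not without the 3 (−0.81, adjusted p = 0.0648). The time of day of each dissection is not stated in the labels.

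Calls lost without the 3 arrays included neutrophil and chemokine genes. Of 8 neutrophil markers 7 were called higher with all arrays and 4 without the 3. Ngp, a neutrophil granule gene, read 4.92, 4.90, 6.05, 4.76 and 5.02 in sham and 5.76 to 8.74 in PPE arrays (1.71 ± 0.47, adjusted p = 0.0133, and 1.62, adjusted p = 0.0775, without the 3). Retnlg, another neutrophil gene, went from 1.50 ± 0.45 (adjusted p = 0.0242) to 1.26 (adjusted p = 0.126) and was also lost without sham 1, sham 4, sham 5 or PPE 5 alone (1.48, 1.38, 1.34 and 1.30). The chemokine genes Cxcl2 and Ccl6 went from 1.45 ± 0.36 (adjusted p = 0.00707) to 1.07 (adjusted p = 0.0964) and from 1.38 ± 0.29 (adjusted p = 0.00222) to 0.82 (adjusted p = 0.0568). Sham 4 and 5 had the lowest Ccl6 levels, at 9.67 and 9.49, and sham 1 to 3 had 10.37 to 11.66. The direction of these genes was the same in both fits.

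**Figure D5:**
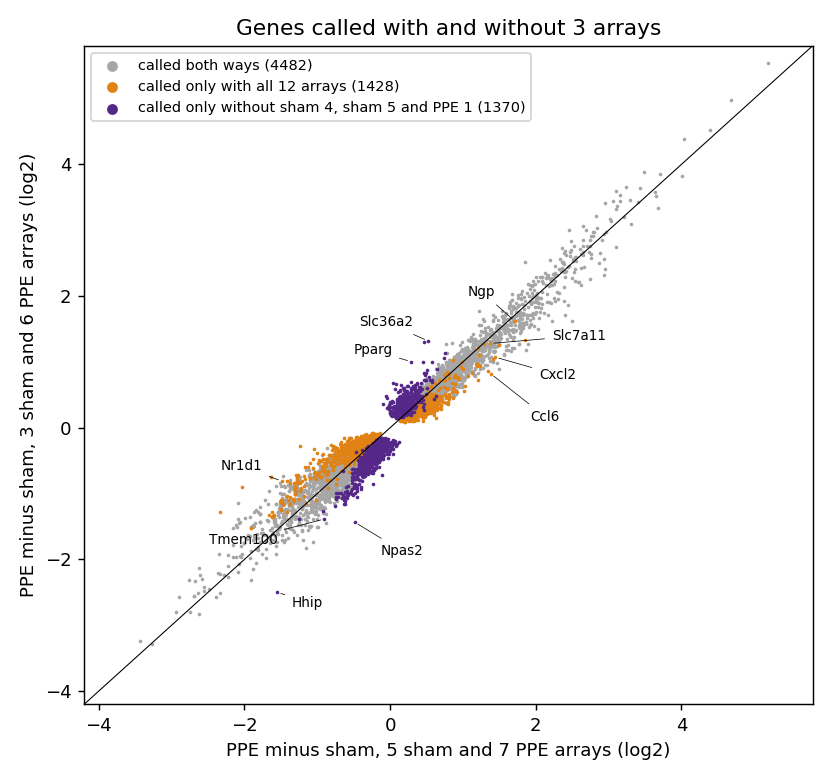
PPE minus sham difference of each called gene with all 12 arrays (horizontal axis, log2 units) and without sham 4, sham 5 and PPE 1 (vertical axis, log2 units), with the line of equal values. Grey points were called in both fits (4482), orange only with all arrays (1428) and purple only without the 3 (1370); Hhip and Npas2 lie well below the line and Pparg and Slc36a2 above it.

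The response of the males was set against that of the females, 4 PPE and 3 sham arrays treated alike, by a test of the difference itself. Over all genes 163 differed (0.542%), and of the genes described here 4 did. Klrb1b rose by 1.15 ± 0.21 in females and by 1.81 ± 0.26 more in males (adjusted p = 0.0133), and Plbd1 by 1.26 ± 0.20 in females and by 1.37 ± 0.26 more in males (adjusted p = 0.0241). Slc25a5 had a difference of 0.30 ± 0.10 in females (adjusted p = 0.13) and rose by 0.60 ± 0.13 more in males (adjusted p = 0.0471). Lncpint had 0.10 ± 0.09 in females (adjusted p = 0.762) and a response lower by −0.55 ± 0.12 in males (adjusted p = 0.0468). With quantile normalization or median centring, 2 genes differed in each case, both with a positive difference. The call of Lncpint, the only negative one, was thus lost with either scaling. Female arrays had higher medians over all probe sets (6.17 to 6.31, with 5.61 to 5.85 in males), and the part of this difference was not tested.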

How the data were processed

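RNA of 19 aortae, 1 mouse per array, had been hybridised to Affymetrix mouse arrays of the Clariom D type, and 12 of these arrays, from males, are described. The deposited table holds log2 intensities of 65956 probe sets, which the authors made with Transcriptome Analysis Console against mm10, per the submitters' processing notes; the sources used here do not give its version, summarisation, background correction or normalization. No further normalization was applied. A single symbol belonged to 30604 probe sets, several to 2146, and 33206 were not named here. Of several probe sets of a gene the one with the highest mean over all 19 arrays was kept, which gave 30062 genes, 1121 of the symbols being updated through RefSeq. This choice was made for 430 genes. limma 3.58.1 (R 4.3.3) fitted 4 group means to all 19 arrays, with lmFit and eBayes, and p-values of the contrast were adjusted by the Benjamini-Hochberg method over all genes and called below 0.05. No 2 male arrays shared more than 2.47% of their values.

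Genes were named by rule: up to 4 rises and 4 falls in each of 80 lists, 8 of each among long non-coding RNAs, 10 of each in no list, taken by size among calls without overlap of the groups, and up to 6 per direction of calls gained or lost without sham 4, sham 5 and PPE 1. Some of these were left out, and some list counts are not reported here. The members and lists were chosen with earlier results of these data known. On simulated data with 200 changed genes among 30062, the fit of male PPE against male sham recovered 52.2%, 83.6% and 100.0% of changes of 0.5, 1 and 2 log2 units, with 10 false calls. The counts of calls and the described genes were recomputed with median centring or quantile normalization, without dim genes, with the male arrays alone, with means over probe sets, a trended robust prior, array weights, a replicate block, a 2-fold minimum, and without single arrays or those 3. The sex difference was recomputed with both scalings only, and promoter motifs and neighbours of non-coding RNAs with none of these.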

Additional observations from a re-analysis of the deposited data

Results flagged for a closer look

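In 20 of 330 groups of values an array stood apart from the rest of its group by Dixon's criterion, which chance alone meets in about 1 in 20 groups. Sham 3 was low for P2rx1 (8.88, the others 10.15 to 10.46), Arhgef12 (12.35, the others 12.48 to 12.53) and Ptprb (12.31, the others 12.83 to 12.98), and high for Mir155 (7.95, the others 7.18 to 7.36) and Ngp (6.05, the others 4.76 to 5.02). Sham 5 was high for Pkd1 (12.21, the others 10.92 to 11.12) and Arhgef17 (10.92, the others 10.15 to 10.35). Sham 4 was high for Pparg (11.39, the others 7.86 to 8.43) and Slc36a2 (10.66, the others 6.34 to 7.10), for the mean of the brown fat list (9.86, the others 5.55 to 5.89) and for that of the mesothelium list (5.87, the others 5.04 to 5.13). Sham 1 was low for Mirt2 (5.57, the others 5.87 to 5.97) and sham 2 high for Pik3ap1 (11.12, the others 10.12 to 10.34).

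Among PPE arrays, PPE 6 was high for the means of the skeletal muscle list (7.32, the others 5.33 to 5.64) and the brown fat list (7.01, the others 5.51 to 6.07) and low for Gja4 (5.94, the others 6.32 to 6.53). PPE 5 was low for Nfix (10.35, the others 10.68 to 10.79), PPE 7 high for Mir99ahg (8.53, the others 7.98 to 8.21) and PPE 1 low for Tmem100 (7.88, the others 8.70 to 9.18). PPE 1 also had the highest median over all probe sets (5.85, the others 5.61 to 5.69).

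The response differed between the sexes, by limma's test of the difference, for 4 of the genes described: Klrb1b (male minus female response 1.81, adjusted p = 0.0133), Plbd1 (1.37, adjusted p = 0.0241), Slc25a5 (0.60, adjusted p = 0.0471) and Lncpint (−0.55, adjusted p = 0.0468). The call of Lncpint was lost with quantile normalization and with median centring.

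Probe sets outside the gene table also gave calls. Of 2146 probe sets with several symbols 668 were called (31.1%, 208 higher and 460 lower), and of 33206 not named here 3969 were called (12%, 1407 higher and 2562 lower).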

How the results depend on the processing

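Of the 141 described genes that were called, 115 kept their direction and their call under every alternative run, and no direction reversed. Many of them had been named as large calls without overlap on these same arrays. Their count therefore does not test how well calls hold in general. The call was lost for 22 with the replicate block, 9 without sham 4, sham 5 and PPE 1, 5 with median centring, 3 with the male arrays alone, 3 with array weights, 1 with quantile normalization and 5 in at least 1 fit that left out a single array. Those without the 3 arrays were Slc7a11, Gja4, Gja1, Mir99a, Nr1d1, Ngp, Retnlg, Cxcl2 and Ccl6. The count of 5910 calls ranged from 4948 to 6348 when 1 array was left out and was 1212 for changes of at least 2-fold. With the male arrays alone, whose variance is then not estimated with the female arrays, it was 4657. It was 6392 with quantile normalization and 6838 with array weights. The share of calls that were higher (49.3%) was 60.4% with median centring, 50.7% with a filter on dim genes, 47.8% with array weights, 47.0% without the 3 arrays, 54.3% for 2-fold changes, and 46.3% to 50.3% when 1 array was left out, the lowest without sham 4. Of 72 calls among SLC carriers, 192 among transcription factor genes and 246 among long non-coding RNAs, 15, 12 and 32 were 2-fold. The ranges without 1 array were 60 to 78, 153 to 203 and 195 to 270. Among the described genes, 4 differed in response between the sexes, 2 with quantile normalization and 2 with median centring. Replicate numbers are not stated to pair the samples. The deviations of same-numbered sham and PPE arrays correlated at −0.29, 0.06, 0.19, −0.06 and −0.32. Arrays of different number were not compared, so these values cannot tell whether the numbers mark a day or batch. The fit with the replicate block called 2282 genes, 54.2% of them higher, with 34 SLC carriers, 59 transcription factor genes and 76 long non-coding RNAs. The causes of these changes were not tested. The number of arrays limits what small changes could be called.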
